A study of Mus musculus with 8 samples.

Results

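Constitutive proteasome subunits, the genes Psma1 to Psma7, Psmb1 to Psmb7, Psmc1 to Psmc6 and Psmd1 to Psmd14, were examined in mouse mesenchymal stromal cells in which the interferon regulator Irf7 was knocked down. Members were the probe sets with exactly 1 of these 34 gene symbols, and 33 of the 34 genes were found, each with 1 probe set, among 19505 genes in all. Psmb5 was not analysed here, and the interferon-inducible subunits Psmb8 to Psmb10, Psme1 and Psme2 were left out of the members. Total RNA was measured on 8 Affymetrix arrays, of cells cultured from the inguinal fat pad of male FVB mice aged 12 months. There were 4 arrays of cells given the lentiviral vector pLKO.1 with a short hairpin RNA against Irf7 (shIRF7), 2 given pLKO.1 with a scrambled hairpin (scramble) and 2 given pLKO.1 with no hairpin (empty vector). All 3 groups thus carried a lentiviral vector. Nothing in the labels says whether the replicates of a group came from separate animals, cultures or infections; the p-values below measure array-to-array spread, part or all of which may be technical.

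The proteasome degrades proteins tagged with ubiquitin. Its core particle is a barrel with alpha rings at its ends, which gate the entrance, and beta rings between them, which hold the proteolytic sites. The regulatory particle on either end binds ubiquitin chains and removes them, and its ring of ATPases unfolds the substrate and feeds it into the barrel. Under interferon the immunoproteasome subunits Psmb8, Psmb9 and Psmb10 replace the 3 catalytic beta subunits, while the constitutive subunits are made in nearly all cells and are raised together by the transcription factor Nrf1 (gene Nfe2l1) when proteasome activity is short.

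Promoter sequences are shown for the 3 subunits that differed most between control arrays, for the 2 subunits whose shIRF7 values all lay above the controls, and for Psmb8, the gene of the interferon-inducible set with the largest difference, because the values below turn on these 6 genes. Each is the 250 bases before the gene start in RefSeq (GRCm38.p6), 5′ to 3′ in the direction of the gene. Capitals mark matches on either strand to TGACNNNGC (the core of the antioxidant response element that Nrf1 and Nrf2 bind), CCAAT (the CCAAT box) or GAAANNGAAA (the core of the interferon-stimulated response element); no matches of different motifs overlapped in the 6 sequences.
Psmd14 (chr2:61711444-61711693, plus strand): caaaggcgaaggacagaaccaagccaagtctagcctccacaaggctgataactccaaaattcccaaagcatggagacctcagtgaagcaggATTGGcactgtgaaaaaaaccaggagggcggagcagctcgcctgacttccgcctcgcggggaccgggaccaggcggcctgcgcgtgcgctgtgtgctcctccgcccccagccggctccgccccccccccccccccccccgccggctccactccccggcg
Psmd12 (chr11:107479278-107479527, plus strand): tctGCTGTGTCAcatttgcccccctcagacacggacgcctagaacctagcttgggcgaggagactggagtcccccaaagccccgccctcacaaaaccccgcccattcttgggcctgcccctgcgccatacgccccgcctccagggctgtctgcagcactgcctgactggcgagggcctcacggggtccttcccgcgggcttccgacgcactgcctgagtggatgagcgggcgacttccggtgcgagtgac
Psmd1 (chr1:86064369-86064618, plus strand): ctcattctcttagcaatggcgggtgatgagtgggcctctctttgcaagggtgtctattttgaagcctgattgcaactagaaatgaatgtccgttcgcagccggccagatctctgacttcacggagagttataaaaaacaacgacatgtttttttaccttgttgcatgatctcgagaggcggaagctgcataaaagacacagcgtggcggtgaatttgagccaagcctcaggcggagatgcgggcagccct
Psmd8 (chr7:29180674-29180923, minus strand): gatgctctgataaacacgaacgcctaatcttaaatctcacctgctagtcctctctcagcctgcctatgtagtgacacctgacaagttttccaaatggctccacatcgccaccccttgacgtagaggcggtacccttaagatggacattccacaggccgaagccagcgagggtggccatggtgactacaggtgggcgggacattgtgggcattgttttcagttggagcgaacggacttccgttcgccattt
Psmd10 (chrX:140956712-140956961, minus strand): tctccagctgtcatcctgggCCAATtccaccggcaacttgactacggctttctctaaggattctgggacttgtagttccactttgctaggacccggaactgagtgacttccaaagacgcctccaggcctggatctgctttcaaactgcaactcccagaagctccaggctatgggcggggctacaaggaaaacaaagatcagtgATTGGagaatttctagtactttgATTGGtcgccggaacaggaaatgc
Psmb8 (chr17:34197945-34198194, plus strand): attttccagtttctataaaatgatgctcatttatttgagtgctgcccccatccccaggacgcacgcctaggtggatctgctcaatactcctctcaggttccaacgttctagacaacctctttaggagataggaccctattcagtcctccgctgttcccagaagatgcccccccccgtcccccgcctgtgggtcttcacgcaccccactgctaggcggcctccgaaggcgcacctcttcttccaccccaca

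Of the 33 members 27 had a promoter in the RefSeq table (not Psmb1, Psmb2, Psmb7, Psmc3, Psmd3 or Psmd7). The antioxidant response core was found in 4 of these 27 (14.8%: Psmb6, Psmc6, Psmd9 and Psmd12), against 11.5% of 27025 genes with a promoter. The CCAAT box was found in 11 of 27 (40.7%), against 37.5% of all genes, and the interferon response core in 3 of 27 (11.1%: Psmb3, Psmd4 and Psmd9), against 3.46%. Of the 5 interferon-inducible genes Psmb8 to Psmb10, Psme1 and Psme2, 0 had the interferon response core, 0 the antioxidant response core and 1 (Psmb9) a CCAAT box. A match to the interferon response core thus did not mark the interferon-inducible genes, and the shares were not tested. In the sequences above, Psmd14 had 1 CCAAT box and Psmd10 had 3, Psmd12 had 1 antioxidant response core, and Psmd1, Psmd8 and Psmb8 had no match. A match is a run of letters and not a measured binding site.

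The labels were checked first on the targeted gene. Irf7 measured 4.42, 5.66, 6.47 and 6.79 in shIRF7 replicates 1 to 4, against 9.56 and 9.76 in scramble and 9.55 and 9.61 in empty vector replicates 1 and 2, in log2 units as all levels below, so that every shIRF7 array lay below every control (difference -3.79, SE 0.48, 95% interval -4.91 to -2.66, adjusted p = 0.0692). The 4 shIRF7 values of Irf7 lay below the 95th percentile of the negative control probe sets on their arrays, and the 4 controls above it, so the size of that difference is uncertain and may be understated. Its adjusted p in limma was 0.0299 with both controls taken as 1 group and 0.0254 without shIRF7 replicate 1. All 33 members lay above the 95th percentile of the negative control probe sets on all 8 arrays, as 28.6% of all genes did. Of 10 measured markers of mesenchymal stromal cells 8 did the same, among them Pdgfrb, Eng and Vim, while Nt5e did so on 0 arrays and Thy1 on 2; of 25 markers of leukocytes, endothelium, adipocytes, epithelium and muscle, 23 did so on 0 arrays, the others being Fabp4 (4 arrays) and Acta1 (3 arrays).

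No constitutive proteasome subunit passed the test in shIRF7 against both controls. The log2 differences of the 33 members ran from -0.45 (Psmd7) to 0.39 (Psmb6), with 12 above 0 and 21 below, and their median was -0.043, beside 0.0017 over all genes. With limma fitted to all 19505 genes and Benjamini-Hochberg adjustment, 0 members reached an adjusted p under 0.05, as 0.0308% of all genes did, and the lowest adjusted p of a member was 0.59. At an unadjusted p under 0.05 there was 1 member (Psmd8, higher), beside 8.12% of all genes. The 95% interval of the difference lay within 1 on the log2 scale (2-fold) either way for 25 of the 33 members (75.8%, beside 76.7% of all genes). The remaining 8 intervals, which reached -1.57 at the lowest and 1.25 at the highest, allowed a change larger than 2-fold. The members also stayed uncalled against each control alone: 0 of 33 in shIRF7 against scramble (0.00513% of all genes; median -0.13, 7 above 0), 0 in shIRF7 against empty vector (0% of all genes; median 0.048, 21 above 0), and 0 in scramble against empty vector (0% of all genes; median 0.21, 26 above 0). These comparisons share arrays. The 95% interval lay within 1 either way for 15 of 33 members in shIRF7 against scramble (45.5%, beside 66.4% of all genes). It did so for 17 in shIRF7 against empty vector (51.5%, beside 66.5%) and for 13 in scramble against empty vector (39.4%, beside 61.0%). The other intervals allowed a change larger than 2-fold. At an unadjusted p under 0.05 limma gave 0, 1 and 0 members in these 3 comparisons. Of all 19505 genes, 559 were higher and 638 lower at that level in shIRF7 against scramble. The counts were 495 and 644 in shIRF7 against empty vector, and 152 and 224 in scramble against empty vector.

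**Figure D1:**
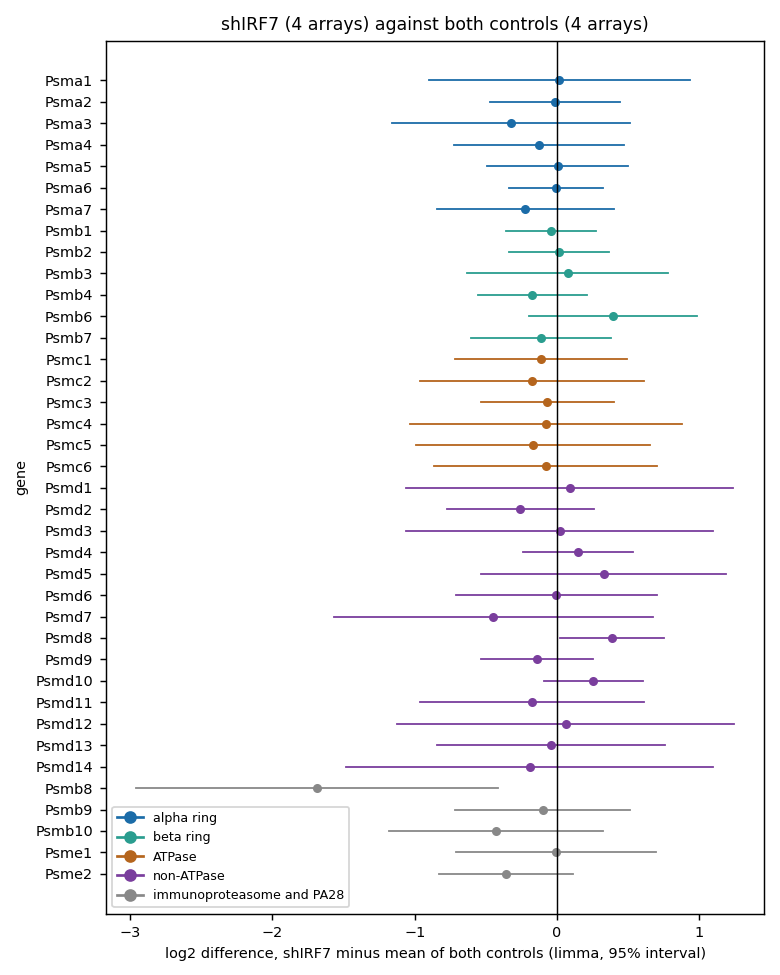
Log2 difference of each gene (horizontal axis), shIRF7 minus the mean of both controls, with its 95% interval from limma (4 shIRF7 arrays, 2 scramble and 2 empty vector arrays), coloured by role. The differences of the 33 members run from -0.45 to 0.39 and 32 of their intervals include 0, the exception being Psmd8; Psmb8 of the immunoproteasome lies at -1.69.

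The median over the members depended on single control arrays. Leaving out empty vector replicate 1 moved it to -0.33, with 5 members above 0, and leaving out scramble replicate 1 moved it to -0.25, also with 5 above 0. Leaving out empty vector replicate 2 moved it to 0.14, with 29 above 0, and leaving out scramble replicate 2 moved it to 0.12, with 26 above 0. Among shIRF7 arrays, leaving out replicate 2 moved the median to 0.019 and leaving out replicate 1 moved it to -0.11.

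Within the core particle, the alpha ring subunits had a median difference of -0.016 over 7 members, 2 above 0. The 3 alpha subunits with the largest differences were all lower in mean. Psma3 measured 12.77, 12.35, 12.59 and 12.72 in shIRF7 replicates 1 to 4, against 12.57 and 13.58 in scramble and 12.02 and 13.55 in empty vector replicates 1 and 2 (difference -0.32, SE 0.36, 95% interval -1.16 to 0.51, adjusted p = 0.893). Its 4 shIRF7 values lay inside the range of the controls, which the replicate 2 controls opened upward. Psma7 measured 12.85, 12.46, 12.59 and 13.12 in shIRF7 replicates 1 to 4, against 12.82 and 13.27 in scramble and 12.39 and 13.44 in empty vector replicates 1 and 2 (difference -0.22, SE 0.27, 95% interval -0.85 to 0.40, adjusted p = 0.905). Its groups overlapped, with every shIRF7 value below both replicate 2 controls. Psma4 measured 14.46, 14.50, 14.52 and 14.60 in shIRF7 replicates 1 to 4, against 14.50 and 15.13 in scramble and 13.94 and 15.03 in empty vector replicates 1 and 2, so that its 4 shIRF7 values spanned 0.14 and the controls 1.18 (difference -0.13, SE 0.26, 95% interval -0.72 to 0.47, adjusted p = 0.951). Psma1, Psma2, Psma5 and Psma6, the remaining parts of the ring, differed by 0.016, -0.016, 0.0035 and -0.0050. By name, RefSeq lists a pseudogene of Psma5, and 2 each of Psmb6 and Psmb7. The probes may not separate their transcripts, so these values are uncertain. Only pseudogenes named after their parent gene were counted, so values of other members may be affected too.

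The beta ring had a median difference of -0.014 over 6 measured members, 3 above 0. Psmb6, which carries the caspase-like site, had the highest difference of all members with all 8 arrays; it was 0.15 without empty vector replicate 1, 0.21 without scramble replicate 1 and 0.64 without empty vector replicate 2. It measured 13.23, 13.54, 13.35 and 13.36 in shIRF7 replicates 1 to 4, against 12.67 and 13.41 in scramble and 12.43 and 13.41 in empty vector replicates 1 and 2. All 4 shIRF7 values lay above the replicate 1 controls, and 3 of the 4 lay below both replicate 2 controls, so the groups overlapped (difference 0.39, SE 0.25, 95% interval -0.20 to 0.98, adjusted p = 0.773). Psmb7, which carries the trypsin-like site, measured 13.93, 13.91, 13.91 and 13.84 in shIRF7 replicates 1 to 4, against 13.90 and 14.45 in scramble and 13.44 and 14.26 in empty vector replicates 1 and 2. The 4 shIRF7 arrays of Psmb7 lay within 0.089 of each other, around scramble replicate 1 and below both replicate 2 controls (difference -0.11, SE 0.21, 95% interval -0.61 to 0.38, adjusted p = 0.945). Psmb4, a subunit with no catalytic site, measured 12.14, 12.21, 12.21 and 12.26 in shIRF7 replicates 1 to 4, against 12.06 and 12.62 in scramble and 12.26 and 12.58 in empty vector replicates 1 and 2 (difference -0.17, SE 0.17, 95% interval -0.56 to 0.21, adjusted p = 0.866). Its shIRF7 values lay between the replicate 1 controls and below both replicate 2 controls. The other structural subunits Psmb1, Psmb2 and Psmb3 differed by -0.043, 0.014 and 0.075.

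The 6 ATPases of the regulatory particle, Psmc1 to Psmc6, had differences between -0.18 and -0.070, all below 0, with a median of -0.098 and a lowest adjusted p of 0.948 (Psmc2). None of the 6 stayed below 0 under every alternative processing or left-out array. Their highest differences there ran from 0.093 (Psmc3) to 0.30 (Psmc4). Against empty vector alone 2 of the 6 were above 0. The shIRF7 values of all 6 lay inside the range of the controls. Psmc2 measured 13.80, 13.18, 13.29 and 13.60 in shIRF7 replicates 1 to 4, against 13.25 and 14.26 in scramble and 12.89 and 14.17 in empty vector replicates 1 and 2 (difference -0.18, SE 0.34, 95% interval -0.96 to 0.61, adjusted p = 0.948). Psmc5 measured 10.49, 9.86, 10.16 and 10.27 in shIRF7 replicates 1 to 4, against 9.73 and 11.12 in scramble and 9.77 and 10.83 in empty vector replicates 1 and 2 (difference -0.17, SE 0.35, 95% interval -0.99 to 0.66, adjusted p = 0.954). Psmc1 measured 11.35, 10.81, 10.96 and 11.19 in shIRF7 replicates 1 to 4, against 11.03 and 11.72 in scramble and 10.55 and 11.47 in empty vector replicates 1 and 2 (difference -0.12, SE 0.26, 95% interval -0.72 to 0.49, adjusted p = 0.958). In these 3 ATPases shIRF7 replicate 1 was the highest shIRF7 array and replicate 2 the lowest, and both replicate 2 controls lay above every shIRF7 array.

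The 14 Psmd genes, with ubiquitin receptors, the scaffold, the deubiquitinase and assembly chaperones among them, divided evenly, 7 above 0 and 7 below, with a median of 0.0061. Psmd8, a lid subunit of the regulatory particle, measured 12.22, 11.99, 11.98 and 12.50 in shIRF7 replicates 1 to 4, against 11.88 and 11.88 in scramble and 11.67 and 11.71 in empty vector replicates 1 and 2. Its 4 shIRF7 values lay above all 4 controls, with means of 12.17 ± 0.24 in shIRF7 and 11.78 ± 0.11 in the controls (SD, n = 4 each; difference 0.39, SE 0.16, 95% interval 0.023 to 0.75, adjusted p = 0.59). Psmd10 (gankyrin), a chaperone that helps to assemble the ATPase ring and is not part of the finished particle, measured 10.17, 10.23, 10.64 and 10.35 in shIRF7 replicates 1 to 4, against 10.01 and 10.14 in scramble and 10.07 and 10.15 in empty vector replicates 1 and 2. Its shIRF7 values also lay above all controls, with means of 10.35 ± 0.21 in shIRF7 and 10.09 ± 0.063 in the controls (SD, n = 4 each; difference 0.26, SE 0.15, 95% interval -0.091 to 0.60, adjusted p = 0.746). These were the 2 members of 33 whose shIRF7 values all exceeded the controls, beside 2.58% of all genes, and 0 members lay below all controls, beside 2.8%. Neither gene passed the test.

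Psmd7, a lid subunit that pairs with the deubiquitinase, had the lowest difference of the members with all 8 arrays. It measured 13.997, 13.18, 13.27 and 13.75 in shIRF7 replicates 1 to 4, against 13.33 and 14.74 in scramble and 12.98 and 14.93 in empty vector replicates 1 and 2 (difference -0.45, SE 0.48, 95% interval -1.57 to 0.67, adjusted p = 0.885). Leaving out empty vector replicate 1 moved that difference to -0.94, and leaving out scramble replicate 1 moved it to -0.80; it was -0.096 without scramble replicate 2 and 0.042 without empty vector replicate 2. The shIRF7 values of Psmd7 lay between both replicate 1 controls and both replicate 2 controls, apart from replicates 2 and 3, which fell under scramble replicate 1. Psmd5, another chaperone of the ATPase ring, measured 11.38, 10.76, 11.05 and 11.11 in shIRF7 replicates 1 to 4, against 10.58 and 11.46 in scramble and 9.67 and 11.30 in empty vector replicates 1 and 2 (difference 0.33, SE 0.37, 95% interval -0.53 to 1.19, adjusted p = 0.898). Psmd14, the deubiquitinase that removes the ubiquitin chain, measured 11.51, 10.60, 10.68 and 11.08 in shIRF7 replicates 1 to 4, against 10.88 and 12.12 in scramble and 9.55 and 12.09 in empty vector replicates 1 and 2; its difference was -0.19 (95% interval -1.48 to 1.10). It had the widest control range of the members, 2.57. The ubiquitin receptor Psmd4 differed by 0.15, the scaffold subunits Psmd1 and Psmd2 by 0.088 and -0.26, the assembly chaperone Psmd9 by -0.14, and the lid subunits Psmd3, Psmd6, Psmd11, Psmd12 and Psmd13 by 0.019, -0.0068, -0.18, 0.061 and -0.043. The lowest adjusted p of these 9 genes was 0.848 (Psmd2).

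Although the groups did not separate, the members did move together from array to array. In 26 of 33 members all 4 shIRF7 values lay inside the range of the 4 controls, where 27.7% of all genes did. The range over the 4 shIRF7 arrays was smaller than that over the 4 controls in 31 of 33 members (93.9%, beside 58.3% of all genes), with median ranges of 0.52 in shIRF7 and 1.18 in the controls, beside 0.55 and 0.63 over all genes. The exceptions were Psmd8 and Psmd10. The arrays of a group were not equally far apart. Over all genes, the SD of the difference between 2 shIRF7 arrays ran from 0.32 (replicates 2 and 3) to 0.71 (replicates 1 and 3). It was 0.65 between the scramble replicates, 0.92 between the empty vector replicates, and 0.33 between scramble replicate 2 and empty vector replicate 2. Relative to the mean of the 4 controls, the median member lay at 0.15, -0.17, -0.20 and 0.012 in shIRF7 replicates 1 to 4, at -0.31 and 0.45 in scramble replicates 1 and 2, and at -0.62 and 0.39 in empty vector replicates 1 and 2. Empty vector replicate 1 was the lowest array for 25 members and scramble replicate 1 for 6. Scramble replicate 2 was the highest for 17 and empty vector replicate 2 for 10. Over all genes the same medians lay between -0.021 and 0.019. Of the 19505 genes 11858 lay above the 95th percentile of the negative control probe sets on no array. The values over all genes, here and below, thus include many dim genes, and genes as bright as the members were not compared apart.

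**Figure D2:**
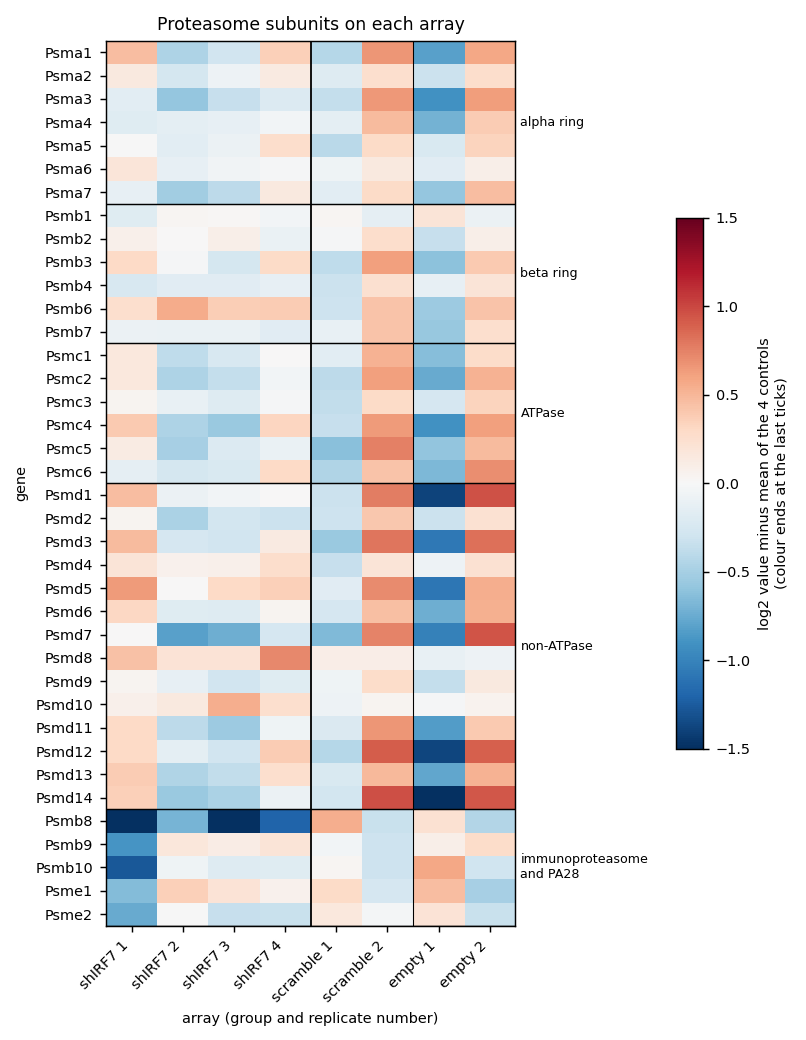
Log2 value of each gene (rows, by role) on each array (columns) minus the mean of the 4 controls, as colour that ends at -1.5 and 1.5. The replicate 2 controls are high and the replicate 1 controls low for most of the 33 members, the 4 shIRF7 arrays lie between them, and the 5 immunoproteasome and PA28 genes do not follow that pattern.

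Replicate 2 was higher than replicate 1 in both the scramble and the empty vector pair for 32 of 33 members, beside 31.9% of all genes. The exception was Psmb1, which differed by -0.17 and -0.28. The median member difference, replicate 2 minus replicate 1, was -0.41 in shIRF7, against 0.72 in scramble and 1.05 in empty vector; over all genes it was 0.0052 in shIRF7, -0.020 in scramble and -0.039 in empty vector. Of the members 28 were lower in replicate 2 of shIRF7. In scramble 9 members exceeded 1 on the log2 scale (5.85% of all genes) and in empty vector 18 did (9.84% of all genes). There is 1 array for each group and number, so no test was made of these differences.

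The size of that shift differed by subunit. Psmd14, the deubiquitinase, had the largest mean shift of the controls, and measured -0.91 in shIRF7, against 1.24 in scramble and 2.54 in empty vector. The shift of the lid subunit Psmd12 was -0.45 in shIRF7, against 1.33 in scramble and 2.28 in empty vector. That of the scaffold subunit Psmd1 was -0.56 in shIRF7, against 1.09 in scramble and 2.35 in empty vector. These 3 genes shared no searched motif in the promoters printed above. At the other end Psmd8 differed by 0.0012 and 0.04 and Psmd10 by 0.13 and 0.076 in the scramble and empty vector pairs. By role, the control shifts in scramble and empty vector had medians of 0.63 and 1.05 in the alpha ring, 0.55 and 0.62 in the beta ring, 0.94 and 1.17 among the ATPases and 0.80 and 1.28 among the Psmd genes. Differences between roles were not tested.

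**Figure D3:**
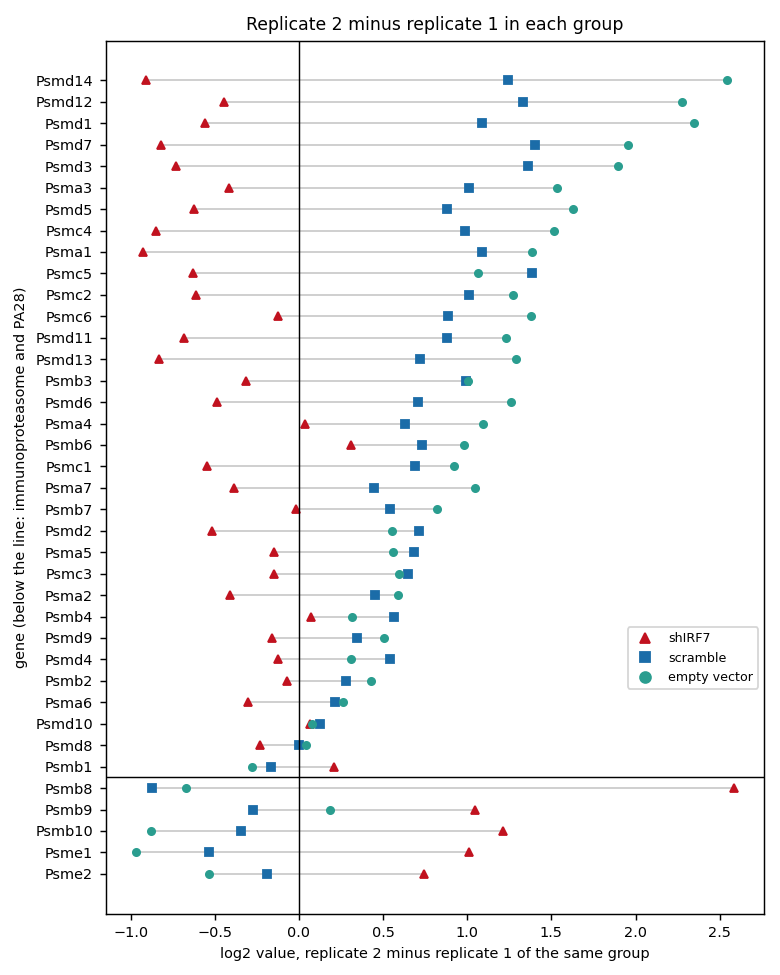
Log2 value of replicate 2 minus that of replicate 1 (horizontal axis) in shIRF7 (triangles), scramble (squares) and empty vector (circles) for each gene, members ordered by the mean of both control pairs. Both control pairs lie above 0 for 32 of 33 members, while 28 of 33 shIRF7 values lie below 0, and Psmb8, Psmb10, Psme1 and Psme2 have the opposite signs.

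All groups share replicate numbers 1 and 2, and the labels do not say that a number marks a shared batch. The arrays of one number are set side by side here without being taken as pairs, and the values rest on the same control arrays as the shifts above. Within replicate 1 the median member lay 0.47 higher in shIRF7 and 31 of 33 members were above 0 (48% of all genes). Within replicate 2 the median member lay at -0.67 and 29 of 33 members were below 0 (48.6% of all genes). Psmd14 differed by 1.30 within replicate 1 and -1.50 within replicate 2, Psmd12 by 1.20 within replicate 1 and -1.05 within replicate 2, and Psma1 by 1.08 within replicate 1 and -1.08 within replicate 2. Psmd8, Psmd10 and Psmb6 had 1 sign under both numbers: Psmd8 differed by 0.44 within replicate 1 and 0.19 within replicate 2, Psmd10 by 0.13 within replicate 1 and 0.092 within replicate 2, and Psmb6 by 0.68 within replicate 1 and 0.13 within replicate 2. For Psmd8 and Psmd10 the signs follow from their shIRF7 values all lying above the controls, and add nothing to it. Psmb4 was below 0 under both numbers, with -0.018 within replicate 1 and -0.39 within replicate 2, and Psmb1 had the reverse signs, with -0.29 within replicate 1 and 0.14 within replicate 2.

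**Figure D4:**
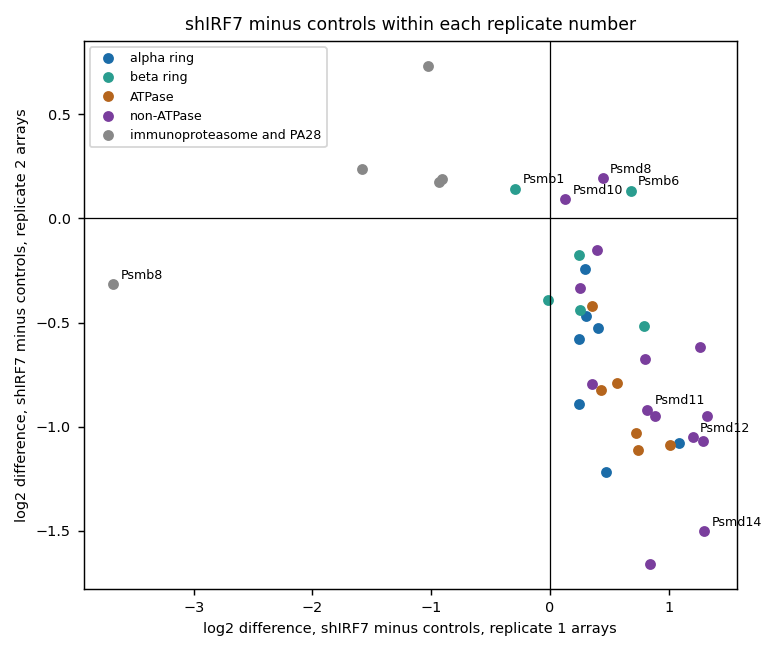
Log2 difference of each gene, shIRF7 minus the mean of scramble and empty vector, among replicate 1 arrays (horizontal axis) and among replicate 2 arrays (vertical axis), 1 array per group and number. Most members lie in the lower right, above 0 within replicate 1 and below 0 within replicate 2; Psmd8, Psmd10 and Psmb6 lie in the upper right.

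Proliferation markers, a list added after these data were seen, had the same pattern over arrays. The median of the 9 measured genes (Mki67, Top2a, Cdk1, Bub1, Aurka, Mcm2, Mcm5, Rrm2 and Pcna) lay at 0.80, -0.21, -0.33 and 0.30 from the control mean in shIRF7 replicates 1 to 4, at -0.51 and 1.53 in scramble and at -2.67 and 1.44 in empty vector replicates 1 and 2. Mki67, a protein of dividing cells, measured 14.51, 13.67, 13.69 and 13.62 in shIRF7 replicates 1 to 4, against 13.71 and 14.75 in scramble and 10.83 and 14.69 in empty vector replicates 1 and 2. All 9 markers were higher in replicate 2 than in replicate 1 of both control groups. Medians of the negative control probe sets were also higher in the replicate 2 arrays (4.55 to 4.56) than in the replicate 1 arrays (4.18 to 4.26), and stood at 4.54 and 4.33 in shIRF7 replicates 3 and 4. The part of either in the member values was not tested.

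The immunoproteasome and the interferon-inducible activator subunits of PA28 had another pattern over the same arrays. Of the 5 genes 0 passed the test in limma (1 at an unadjusted p under 0.05, Psmb8), all 5 differences were below 0, and the median was -0.36. The signs of Psmb9 and Psme1 changed without shIRF7 replicate 1. Of the 5 genes 3 were then below 0 and the median was -0.15, with Psmb8 at -1.15, Psmb9 at 0.16, Psmb10 at -0.15, Psme1 at 0.21 and Psme2 at -0.23. Without empty vector replicate 1 the median was -0.21, with 4 of 5 below 0. Psmb8, the inducible counterpart of the constitutive subunit Psmb5, measured 4.25, 6.84, 5.99 and 6.34 in shIRF7 replicates 1 to 4, against 8.09 and 7.21 in scramble and 7.77 and 7.10 in empty vector replicates 1 and 2, with all shIRF7 values below the controls (difference -1.69, SE 0.55, 95% interval -2.96 to -0.42, adjusted p = 0.488). It was not above the 95th percentile of the negative controls on any array, so the size of its difference is uncertain. Psmb10, the inducible counterpart of Psmb7, measured 8.01, 9.22, 9.09 and 9.10 in shIRF7 replicates 1 to 4, against 9.31 and 8.97 in scramble and 9.87 and 8.99 in empty vector replicates 1 and 2 (difference -0.43, adjusted p = 0.819); shIRF7 replicate 1 stood below the rest, and without it the difference was -0.15 (adjusted p = 0.895). Psmb9, the counterpart of Psmb6, was not above that percentile on any array either, and Psme1 and Psme2 differed by -0.0066 and -0.36. Psmb8, Psmb10, Psme1 and Psme2 were lower in replicate 2 than in replicate 1 of both control groups, and within replicates 1 and 2 the median of the 5 genes was -1.03 and 0.19, the reverse of the signs of the constitutive subunits. The test of a difference between the gene groups was not made.

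Among genes that assemble the proteasome, 0 of 5 measured passed the test (3 above 0, median 0.15; 1, Psmg4, at an unadjusted p under 0.05). The median turned to -0.10 without empty vector replicate 1 and to -0.13 without scramble replicate 1. Psmg4, an assembly chaperone of the alpha ring, measured 5.62, 5.95, 5.93 and 6.84 in shIRF7 replicates 1 to 4, against 6.55 and 7.40 in scramble and 6.57 and 6.93 in empty vector replicates 1 and 2 (difference -0.78, adjusted p = 0.584), below the 95th percentile of the negative controls on every array. Pomp, which helps beta subunits to join, differed by 0.36 (adjusted p = 0.751). Of 6 measured receptors and deubiquitinases bound to the particle 0 passed (2 above 0, median -0.17; 1, Ube3c, at an unadjusted p under 0.05). The median ran from -0.44 without empty vector replicate 1 to -0.016 without scramble replicate 2. Ube3c, a ubiquitin ligase that works on the proteasome, had the lowest adjusted p of any gene of the pathway; its difference stayed between -0.83 and -0.63 when single arrays were left out. It measured 11.78, 11.45, 11.45 and 11.18 in shIRF7 replicates 1 to 4, against 12.02 and 12.29 in scramble and 12.31 and 12.14 in empty vector replicates 1 and 2, every shIRF7 value below every control (difference -0.72, SE 0.17, 95% interval -1.11 to -0.33, adjusted p = 0.285). Within replicates 1 and 2 it differed by -0.38 and -0.76, with signs that follow from its shIRF7 values all lying below the controls. Txnl1, a thioredoxin-like protein of the regulatory particle, differed by -0.33 (adjusted p = 0.841; -0.14 without scramble replicate 2, and also without empty vector replicate 2).

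Of 5 measured regulators of proteasome gene transcription 0 passed (3 above 0, median 0.15; 1, Nfe2l1, at an unadjusted p under 0.05). The median was 0.049 without empty vector replicate 1. Nfe2l1, which encodes Nrf1, measured 13.80, 14.27, 14.31 and 13.90 in shIRF7 replicates 1 to 4, against 14.35 and 14.31 in scramble and 14.86 and 14.59 in empty vector replicates 1 and 2 (difference -0.46, SE 0.17, 95% interval -0.85 to -0.063, adjusted p = 0.555). Of its shIRF7 values only replicate 3 was not below all controls, standing level with scramble replicate 2. It differed by -0.81 within replicate 1 and -0.17 within replicate 2. By control, Nfe2l1 differed by -0.26 against scramble (95% interval -0.74 to 0.22) and by -0.65 against empty vector (95% interval -1.14 to -0.17). Scramble itself differed from empty vector by -0.40 (95% interval -0.95 to 0.16). Keap1, which holds Nrf2 in the cytoplasm, differed by 0.18 (adjusted p = 0.852). Of 8 measured genes of ubiquitin activation and substrate delivery 0 passed (2 above 0, median -0.25; 1, Nploc4, at an unadjusted p under 0.05). The median ran from -0.36 to -0.11 when single arrays were left out. Ubqln4, a shuttle for ubiquitylated proteins, differed by -0.93 (adjusted p = 0.711; -0.48 without empty vector replicate 2), and Nploc4, a cofactor of the segregase Vcp, by -0.72 (adjusted p = 0.608). Ubqln4 lay above the 95th percentile of the negative controls on 6 of the 8 arrays. Both genes had opposite signs within the replicate numbers, Ubqln4 with 0.65 within replicate 1 and -2.07 within replicate 2 and Nploc4 with 0.29 within replicate 1 and -1.44 within replicate 2. Of the activators and restricted subunits 0 of 5 passed (3 above 0, median 0.017; 0 at an unadjusted p under 0.05). The nuclear activator Psme3 differed by -0.36 (adjusted p = 0.884; -0.0051 without empty vector replicate 2) and the regulator Psmf1 by 0.28 (adjusted p = 0.719). Psma8 of the testis and Psmb11 of the thymus were not above the 95th percentile of the negative controls on any array.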

How the data were processed

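Total RNA of 8 samples was measured on Affymetrix arrays. The authors deposited log2 values by RMA, run in Affymetrix Expression Console (version 1.4.1.46, as the submitters' processing notes have it). That the scale is log2 follows from the range of the values (1.66 to 18.9). The genome build of the array annotation: not given in the sources used here. Of 28846 probe sets 19572 had 1 gene symbol; for 55 genes with several probe sets the one of highest mean was kept, leaving 19505 genes, and 0 sample columns were unused. Arrays were grouped by title. In R 4.3.3, limma 3.58.1 (lmFit, eBayes) fitted a mean per group to all 8 arrays, with 5 residual and 2.68 prior degrees of freedom. The controls were weighted equally, and p-values were adjusted by Benjamini-Hochberg over the 19505 genes, at 0.05. The fit was also run on simulated data with independent noise on every array. Such data hold no deviations shared between control arrays, so no error rate for the real arrays is taken from them. The number of arrays limits the precision.

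Members and gene lists were chosen with earlier results of these data known. Values by array are given for the 3 members per role with the largest absolute difference, for members whose groups did not overlap, for measured catalytic subunits, for Irf7, and for some of the 2 genes per pathway list with the largest absolute difference. Psmd14, Mki67, the members named for their shift between replicates, and pathway genes beyond those 2 per list were chosen after their values were seen. Alternatives were cyclic loess, a shift to 1 median, a filter on dim genes, trend and robust fitting, other handling of probe sets, 1 group for both controls, a replicate block, shIRF7 replicates 2 and 3 averaged, and leaving out each array; for the pathway lists the last was added after the data were seen. Listed genes without a named probe set, Psmb5 among them, were not analysed here.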

Additional observations from a re-analysis of the deposited data

Results flagged for a closer look

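Among the 4 shIRF7 arrays of each of the 46 genes followed (33 members, 12 pathway genes and Irf7), 1 gene had an array far from the others. Psmb10 measured 8.01 in shIRF7 replicate 1, against 9.09 to 9.22 in the other 3 shIRF7 arrays. Its difference from the controls was -0.43 with all arrays and -0.15 without that array. None of the 33 constitutive subunits was singled out in this way. Chance singles out about 1 gene in 20, each gene taken alone. Psmb9, Psme1 and Psme2 were not among the genes checked. In these genes, in Psmb8 and in Irf7, shIRF7 replicate 1 was also the lowest shIRF7 array. Psmb9 measured 3.36 there, against 4.36 to 4.44 in the other shIRF7 arrays, all below the 95th percentile of the negative controls.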

How the results depend on the processing

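Under all 17 alternatives 0 of the 33 members passed the threshold in any comparison that could be fitted, and the lowest adjusted p of a member in shIRF7 against both controls was 0.36 (Psmb6, without empty vector replicate 2). In that comparison 7 members kept the sign of their difference under every alternative: Psmb6, Psmd4, Psmd8 and Psmd10 above 0, and Psmb4, Psmd2 and Psmd9 below. With single arrays left out, the signs of Psmd8 and Psmd10 were fixed beforehand, as their shIRF7 values all lay above the controls. The difference of Psmd8 ran from 0.28 to 0.45 and that of Psmd10 from 0.11 to 0.32. The median over the members ran from -0.33 to 0.14 when single arrays were left out, was 0.0047 with shIRF7 replicates 2 and 3 averaged, and was -0.070 with cyclic loess, where 8 of 33 members lay above 0 against 12 in the deposited values. The cause was not tested. Leaving out 1 array gave medians from -0.49 to 0.57 in shIRF7 against empty vector and from -0.37 to 0.73 in scramble against empty vector, with the ends set by empty vector replicates 1 and 2, and from -0.53 to 0.22 in shIRF7 against scramble, with the ends set by scramble replicates 1 and 2. Among the named genes 0 passed with all arrays, against 1 (Irf7) with both controls as 1 group and 0 to 1 when single arrays were left out (1, Irf7, without shIRF7 replicate 1). A block for the replicate number, which only replicates 1 and 2 inform, was also fitted: the median was -0.043 and 0 members passed. Over all genes, deviations from the group means correlated at 0.76 between the scramble and empty vector arrays of the same number (0.86 over the members). Between shIRF7 and control arrays of the same number they correlated at -0.16 to -0.31 (-0.56 to -0.69 over the members), so the numbers were not taken to pair the samples. The main fit took all 8 arrays as independent. Deviations shared by the controls of one number thus enter its SE values, intervals and adjusted p-values, and the size of that effect was not tested. Over all genes, 6 were called in shIRF7 against both controls, against 0 to 28 under the alternatives. Comparisons with a single control were not fitted with both controls as 1 group. Where leaving out an array left a control with 1 array, that array was taken to vary as the other groups do.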
